A study of Mus musculus with 6 samples.

Results

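The immediate early genes and Myc were followed in J1 mouse embryonic stem cells treated with the receptor inhibitor SB431542. The set held 10 genes, taken by matching the RefSeq accession of each non-control probe to the gene: Egr1, Egr2, Fos, Fosb, Fosl1, Jun, Ier2, Ier3, Myc and Nr4a1. Each of the 10 genes had 1 probe, and 9 of them were measured well enough to be tested, among 25910 features in all, of which 15659 carried a gene symbol. The tested cells were kept for 24 h with 3 µM SB431542 (3 arrays), and the control cells for 24 h with its solvent DMSO (3 arrays). Both groups were J1 cells of strain 129S4/SvJae, adapted to gelatin and grown in serum-replacement medium with 1000 U/mL of LIF, the cytokine that keeps these cells self-renewing. SB431542 inhibits ALK4, ALK5 and ALK7, the type I receptors through which Nodal, activin and TGF-beta signal. Total RNA was labelled with Cy3 and hybridised to Agilent arrays of 1 colour. Whether each replicate was a culture of its own is not stated, and p-values therefore describe the spread between arrays, which may be technical.

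Immediate early genes are switched on by growth factors, serum and other stimuli without new protein synthesis, largely through ERK and other kinases that act on the transcription factors SRF, the ternary complex factors and CREB. Most encode transcription factors themselves: EGR zinc-finger proteins, the FOS and JUN proteins that pair as AP-1, and the orphan nuclear receptor NR4A1. MYC, a basic helix-loop-helix factor that pairs with MAX, drives genes of growth and ribosome production and is also known in mouse embryonic stem cells as a target of LIF and STAT3.

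Limma tests, two-sided, were adjusted by the Benjamini-Hochberg method over all 25910 features, and "fell" and "rose" are used of features with an adjusted p under 0.05. Levels are log2 signals relative to the 75th percentile of the same array, and they are compared between groups for 1 probe at a time. Of the 9 members tested, 3 fell and 0 rose, namely Egr1, Myc and Fos, while 7.39% of all features fell and 5.19% rose (12.6% changed in either direction). Both Egr1 and Myc passed with a fall of at least 2-fold, which 1.21% of all features did. The other 6 members did not pass the test. The groups did not overlap for 2 of these, Ier2 and Ier3, and for 36% of all features. Across the 9 genes the median log2 change was -0.05, against 0.02 over all features. On slide 1 alone, without SB431542 replicate 3, also 3 members fell and 0 rose, while 1678 of all 25910 features fell and 1236 rose.

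**Figure D1:**
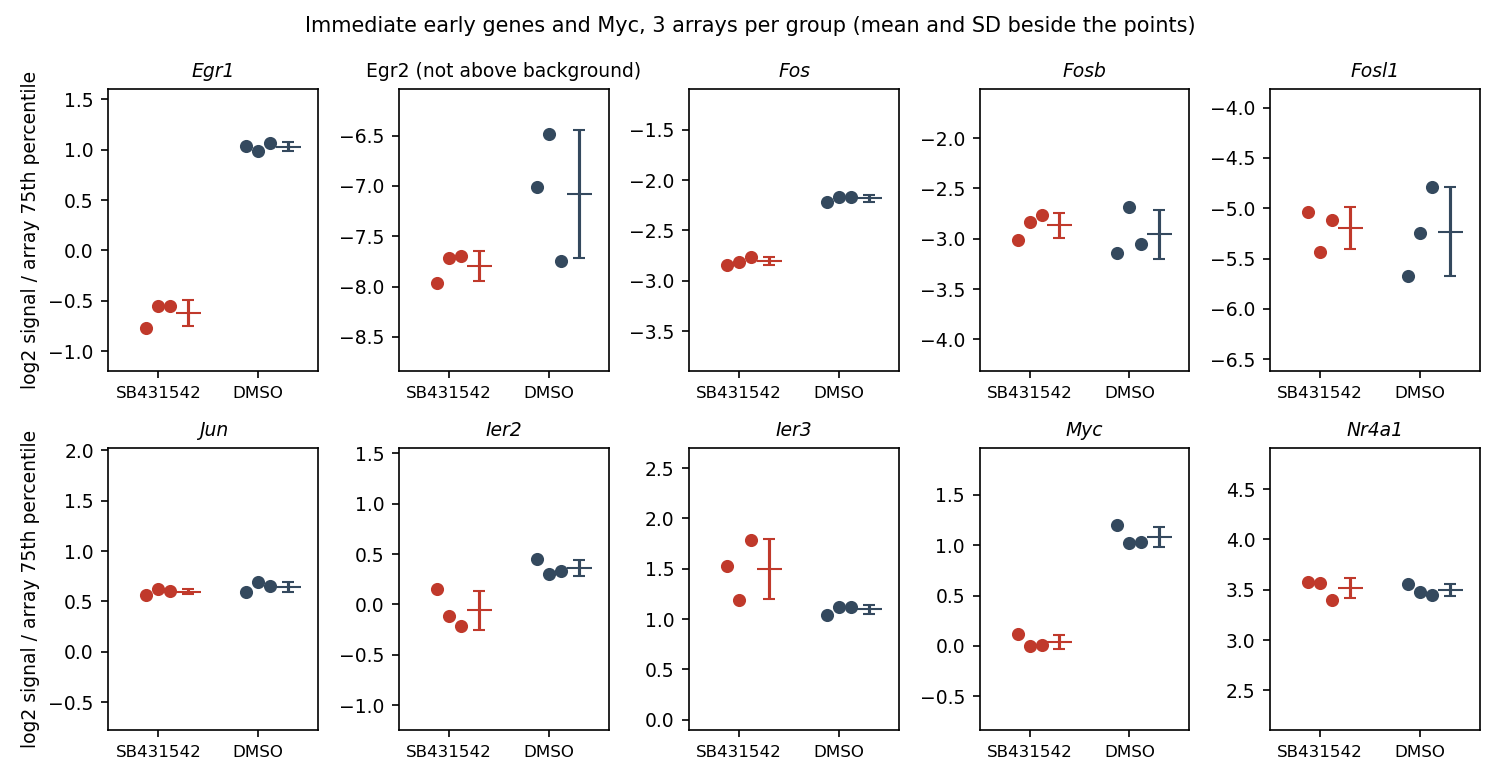
Log2 signal relative to the 75th percentile of the array, for the 1 probe of each gene on the 3 SB431542 arrays (left, red) and the 3 DMSO arrays (right, dark), with mean and SD beside the points; every panel spans the same height, and its position is that of the probe. Egr1, Myc and Fos lie lower on each SB431542 array than on any DMSO array, and Egr2 was not above background on any array.

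Egr1, which encodes the best-known zinc-finger factor of the EGR family and is a standard readout of ERK activity, showed the largest fall among the members. Its log2 level was -0.78, -0.55 and -0.55 on the SB431542 arrays, against 1.04, 0.99 and 1.07 on the DMSO arrays. All 3 SB431542 values lay more than 1 log2 unit below the lowest DMSO value, with no overlap. The log2 change was -1.66 ± 0.08 (SE, 3 arrays per group, limma adjusted p = 0.000329), or 3.15-fold lower in SB431542 cells. By this change Egr1 stood 71st from the lowest of the 15659 features with a symbol. In RNA from whole cultures, fewer cells that express a gene and less of its RNA per cell cannot be told apart.

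Egr2, another EGR factor, had a probe that no array measured well above background. Its processed signals were 2.05, 2.15 and 2.72 intensity units on the SB431542 arrays, against 4.18, 5.97 and 2.50 on the DMSO arrays, and no fold is given. Within the rest of the family, Egr3 was likewise below that limit on every array. Egr4, by contrast with Egr1, rose. Its log2 level was -1.90, -1.86 and -1.87 on the SB431542 arrays, against -3.45, -3.35 and -3.36 on the DMSO arrays, so that the groups lay far apart with little spread in either. The log2 change was 1.51 ± 0.05 (limma adjusted p = 0.000187), or 2.84-fold higher in SB431542 cells. The corepressor genes Nab1 (-0.23 ± 0.09, limma adjusted p = 0.168) and Nab2 (0.01 ± 0.06, limma adjusted p = 0.909), whose products bind EGR factors, did not pass. The list of other EGR and NAB genes therefore held 1 rise and 0 falls among 3 genes tested (5.19% and 7.39% of all features). Egr1 and Egr4, both EGR factors, changed in opposite directions. Both calls held without each array in turn.

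Myc fell as well. Its log2 level was 0.12, -0.0030 and 0.0047 on the SB431542 arrays, against 1.20, 1.02 and 1.03 on the DMSO arrays, and no SB431542 array reached the DMSO range. The log2 change was -1.04 ± 0.07 (SE, 3 arrays per group, limma adjusted p = 0.000971), or 2.06-fold lower in SB431542 cells. The probe was spotted 2 times on each array, and the 6 spots on SB431542 arrays ran from -0.05 to 0.23, against 1.02 to 1.27 for the 6 spots on DMSO arrays. Spots of an array are not replicates of a condition, but they show that the difference exceeded the spread between spots.

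The partners of MYC showed smaller changes. Mycn, the MYC family gene that is also active in embryonic stem cells, did not pass (0.06 ± 0.06, 95% confidence interval -0.08 to 0.20, limma adjusted p = 0.536), and neither did Max, the obligate partner (-0.05 ± 0.09, 95% confidence interval -0.26 to 0.16, limma adjusted p = 0.725). Both intervals exclude a fall of the size seen for Myc. Of 10 network genes tested, 2 rose and 0 fell in the fit of all arrays (5.19% and 7.39% of all features), with a median log2 change of 0.06. They were Mxd1 (0.32 ± 0.07, limma adjusted p = 0.0359) and Mxd4 (0.29 ± 0.06, limma adjusted p = 0.0270), whose products compete with MYC for MAX. Neither call held when any 1 of the 6 arrays was left out, the count then being 0 in each case. With an array left out, 542 to 1236 of all features rose, against 1345 in the fit of all arrays. The adjusted p of Mxd1 then ran up to 0.111 (without DMSO replicate 2) and that of Mxd4 up to 0.1003 (without DMSO replicate 3).

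Genes known as MYC targets were read as well. Of 28 tested, 2 fell and 0 rose, while over all features 7.39% fell and 5.19% rose. The median log2 change of the list was -0.0040. Ccnd2, which encodes cyclin D2, fell by 1.56 ± 0.08 on the log2 scale (limma adjusted p = 0.000449). Its levels were -2.05, -2.23 and -2.30 on the SB431542 arrays and -0.69, -0.56 and -0.66 on the DMSO arrays, with a wide gap between the groups. The serine hydroxymethyltransferase gene Shmt2 fell by 0.36 ± 0.06 (limma adjusted p = 0.0162), a call lost without any 1 DMSO array (limma adjusted p from 0.0673 to 0.0723). Under normexp background correction 4 of the list fell and 1 rose, while 1869 of all 25910 features fell and 1500 rose. The list of upstream factors had 2 that rose under that setting.

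Fos, whose product pairs with JUN proteins to form AP-1, showed a smaller fall that differed little between arrays. The 250 bases before its start are shown because Fos was the only member that fell whose promoter window was read. Beside it are the windows of Fosb and Nr4a1, which did not pass the test and hold the same motif. Windows were read from a RefSeq promoter table on GRCm38.p6 for 6 of the 10 genes. Entries for Egr1, Fosl1, Ier2 and Myc were not used. Capitals mark TGACG or its reverse complement, the core of the cAMP response element bound by CREB, and the sequences run 5′ to 3′ along the gene's strand.
Fos, chr12:85473640-85473889, plus strand: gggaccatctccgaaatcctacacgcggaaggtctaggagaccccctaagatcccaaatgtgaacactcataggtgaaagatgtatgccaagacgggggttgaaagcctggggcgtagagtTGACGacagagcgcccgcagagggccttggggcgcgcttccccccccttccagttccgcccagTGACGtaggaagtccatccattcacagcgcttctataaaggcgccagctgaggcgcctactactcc
Fosb, chr7:19310046-19310295, minus strand: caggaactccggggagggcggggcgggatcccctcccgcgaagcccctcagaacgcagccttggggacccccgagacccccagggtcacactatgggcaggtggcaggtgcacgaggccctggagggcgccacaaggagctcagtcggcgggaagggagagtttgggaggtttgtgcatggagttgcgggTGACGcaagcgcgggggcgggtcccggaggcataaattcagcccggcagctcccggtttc
Nr4a1, chr15:101266596-101266845, plus strand: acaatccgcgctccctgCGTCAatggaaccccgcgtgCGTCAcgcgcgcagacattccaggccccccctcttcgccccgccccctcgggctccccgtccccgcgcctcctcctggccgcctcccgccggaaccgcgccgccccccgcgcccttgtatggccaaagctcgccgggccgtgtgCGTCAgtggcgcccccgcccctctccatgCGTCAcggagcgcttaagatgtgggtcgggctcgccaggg

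This core occurs 2 times in the Fos window, 1 time in that of Fosb and 4 times in that of Nr4a1, and 17.8% of the 32851 promoters of the table hold it on either strand within the same length. The Fos matches begin 129 and 66 bases before the start, and that of Fosb 60 bases before it. The full response element TGACGTCA, the AP-1 site TGACTCA, the EGR site GCGTGGGCG, the Smad site GTCTAGAC and the CArG box bound by SRF were searched on both strands as well. None of these 5 is in the 3 windows shown, and they occur in 1.55%, 4.46%, 0.536%, 0.167% and 1.47% of all promoters. The windows of Jun and Ier3 hold none of the 6 motifs, and those of Egr2 include some with the core and the CArG box. The core was thus present before a gene that fell and before genes that did not pass. A match is a description of the letters and not a binding site.

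The log2 level of Fos was -2.84, -2.81 and -2.76 on the SB431542 arrays, against -2.22, -2.16 and -2.16 on the DMSO arrays. The 3 arrays of each group lay close together and the groups did not overlap. The log2 change was -0.63 ± 0.05 (SE, 3 arrays per group, limma adjusted p = 0.00162), or 1.54-fold lower in SB431542 cells. Under normexp background correction, which adds an offset to every signal, the change was -0.35 ± 0.06 (limma adjusted p = 0.00298), so that its size depends on how background is handled. The design repeats the Fos probe 10 times on each array, which gives a measure of technical spread. After 2 outlier spots were left out, the 29 spots on SB431542 arrays ran from -2.96 to -2.61, below the 29 spots on DMSO arrays, which ran from -2.42 to -1.97. The SD over spots of an array was between 0.09 and 0.12.

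**Figure D2:**
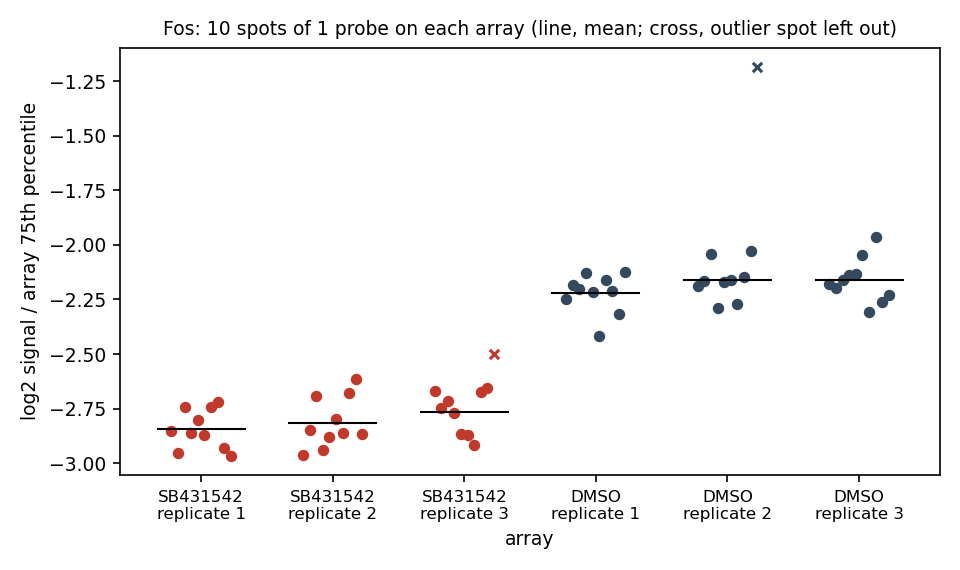
Log2 signal of each of the 10 spots of the Fos probe on the 3 SB431542 arrays (left, red) and the 3 DMSO arrays (right, dark), with the array mean as a line and outlier spots as crosses. All SB431542 spots used lie between -2.96 and -2.61, under the lowest DMSO spot used at -2.42.

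The other AP-1 genes of the set did not pass. Fosb, a close relative of Fos, had log2 levels of -3.01, -2.83 and -2.76 on the SB431542 arrays and -3.14, -2.68 and -3.05 on the DMSO arrays, which overlap (change 0.09 ± 0.14, 95% confidence interval -0.25 to 0.42, limma adjusted p = 0.712). Fosl1, which encodes FRA-1, stood well above background on all SB431542 arrays (3 of 3) and on 2 of 3 DMSO arrays. Its levels were -5.04, -5.43 and -5.11 on the SB431542 arrays and -5.67, -5.25 and -4.79 on the DMSO arrays, and its wide interval (-0.54 to 0.62 around 0.04, limma adjusted p = 0.930) would contain a change in either direction. Jun, the central JUN gene, was measured more tightly. Its levels of 0.57, 0.62 and 0.60 on the SB431542 arrays overlapped those of 0.60, 0.70 and 0.65 on the DMSO arrays. The change of Jun was -0.05 ± 0.05 (limma adjusted p = 0.566), with an interval of -0.18 to 0.08 that does not reach the estimate for Fos. Whether the changes of Fos and of these genes differ was not tested.

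Among 11 other AP-1 and related bZIP genes tested, 3 fell and 0 rose (7.39% and 5.19% of all features), with a median log2 change of -0.07. Atf3, which encodes a stress-induced partner of JUN, showed the largest fall. Its levels were -3.33, -3.95 and -3.67 on the SB431542 arrays, against -1.65, -1.67 and -1.65 on the DMSO arrays, and its change was -2.00 ± 0.15 (limma adjusted p = 0.00129), with a larger spread in SB431542 cells. Batf3, a bZIP factor best known from dendritic cells, fell by 0.72 ± 0.11 (limma adjusted p = 0.0130, and 0.0508 without DMSO replicate 3). Maff, which encodes a small MAF protein, fell by 0.33 ± 0.07 (limma adjusted p = 0.0349), a call that was lost without any DMSO array and without SB431542 replicates 1 or 2 (limma adjusted p from 0.0568 to 0.124). Without single arrays the count of falls ran from 1 to 3, with 1 left without DMSO replicate 3. Over all features 926 to 1678 fell in those fits, against 1916 with all arrays. The fall of Atf3 kept its call in each case. Junb (-0.42 ± 0.20, limma adjusted p = 0.241) and Jund (0.04 ± 0.07, limma adjusted p = 0.771), the remaining JUN genes, did not pass.

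Ier2 and Ier3, which encode unrelated immediate early response proteins, lay on opposite sides and did not pass. The log2 level of Ier2 was 0.15, -0.12 and -0.21 on the SB431542 arrays, against 0.46, 0.30 and 0.33 on the DMSO arrays. Each SB431542 value was the lower, but replicate 1 came close to the DMSO range, and the change was -0.42 ± 0.11 (95% confidence interval -0.69 to -0.16, limma adjusted p = 0.0588). The adjusted p was 0.0229 without SB431542 replicate 1, where the change was -0.53, and it was 0.0190 under normexp, 0.0173 with an intensity trend in the variance and 0.0474 over probes well above background on all 6 arrays. For Ier3, a regulator of cell survival, the levels were 1.52, 1.19 and 1.78 on the SB431542 arrays, against 1.04, 1.12 and 1.13 on the DMSO arrays. Its SB431542 arrays spread far more widely (SD 0.30, against 0.04 in DMSO), with replicate 2 just above the DMSO range and replicate 3, the array on slide 2, the highest. The change of Ier3 was 0.40 ± 0.15 (95% confidence interval 0.04 to 0.77, limma adjusted p = 0.149), and without SB431542 replicate 2 it was 0.56 with an adjusted p of 0.0351. The groups did not overlap for 5 of the 9 members, 4 of them lower in SB431542, against 36% of all features (17.3% with SB431542 lower).

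Nr4a1, the orphan nuclear receptor gene also known as Nur77, did not pass. Its levels were 3.58, 3.57 and 3.40 on the SB431542 arrays, against 3.56, 3.48 and 3.44 on the DMSO arrays, which overlap almost fully. The change was 0.02 ± 0.07 (95% confidence interval -0.15 to 0.20, limma adjusted p = 0.868). Of the other NR4A genes, Nr4a3 was not well above background on a single array. Nr4a2 did not pass (0.11 ± 0.27, limma adjusted p = 0.815), and its other probe gave -0.20.

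**Figure D3:**
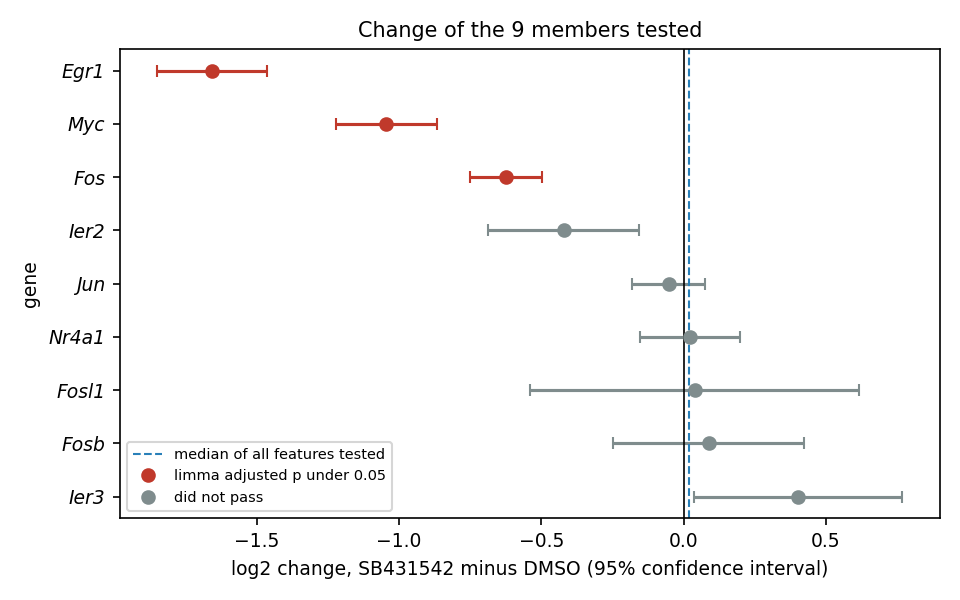
Log2 change (SB431542 minus DMSO) with its 95% confidence interval for the 9 members tested; red marks an adjusted p under 0.05, grey the others, and the dashed line the median of all features at 0.02. The intervals of Egr1, Myc and Fos lie wholly below 0, as does that of Ier2, and that of Ier3 lies wholly above 0. Neither Ier2 nor Ier3 passed, and the intervals of Jun, Nr4a1, Fosb and Fosl1 contain 0.

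Beyond the set, 30 further immediate early genes were tested, and 6 fell and 3 rose (7.39% and 5.19% of all features), with a median log2 change of -0.07. Among the falls were Ccn2, a matricellular growth factor gene (-0.92 ± 0.08, limma adjusted p = 0.00220), Mcl1, an inhibitor of apoptosis (-0.47 ± 0.06, limma adjusted p = 0.00721), and the pseudokinase gene Trib1 (-0.44 ± 0.05, limma adjusted p = 0.00401). Further falls were those of Tiparp, a mono-ADP-ribosyltransferase gene (-0.36 ± 0.05, limma adjusted p = 0.0112), and Rhob, a small GTPase gene (-0.39 ± 0.06, limma adjusted p = 0.0142). The Krüppel-like factor gene Klf2 rose by 0.44 ± 0.06 (limma adjusted p = 0.00624). The other rises, Sgk1 (0.44 ± 0.07) and Klf6 (0.44 ± 0.09), and the last fall, Ier5l (-0.33 ± 0.06), are named here after their values were seen. Without single arrays, 3 to 7 of these genes fell and 1 to 3 rose. The falls numbered 3 without DMSO replicates 1 and 3 and 4 without DMSO replicate 2. The rises numbered 1 without DMSO replicate 2, DMSO replicate 3 and SB431542 replicate 1, and 2 without DMSO replicate 1. Those fits also called fewer of all features, as 926 to 1678 fell and 542 to 1236 rose, against 1916 and 1345 with all arrays. Ccn2, Mcl1, Trib1 and Klf2 kept their calls without each array, while Rhob was lost without each DMSO array (limma adjusted p from 0.0527 to 0.0694) and Tiparp without DMSO replicates 1 (0.0535) and 3 (0.0559). Sgk1 was lost without DMSO replicates 2 and 3 and SB431542 replicate 1, Klf6 without each array except SB431542 replicate 3, and Ier5l without each DMSO array.

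The genes of the upstream machinery formed another list. Of 19 genes for SRF and its MRTF coactivators, ternary complex factors, CREB family members and MAP kinases, 1 rose and 0 fell. Over all features 5.19% rose and 7.39% fell. The median log2 change of the list was 0.02. Elk3, a ternary complex factor gene, rose by 0.47 ± 0.06 (limma adjusted p = 0.00782), and its 2 other probes gave 0.61 and 0.42. Srf itself did not pass (-0.08 ± 0.08, 95% confidence interval -0.27 to 0.12, limma adjusted p = 0.580). These values are transcript levels, and the activity of the kinases was not measured.

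**Figure D4:**
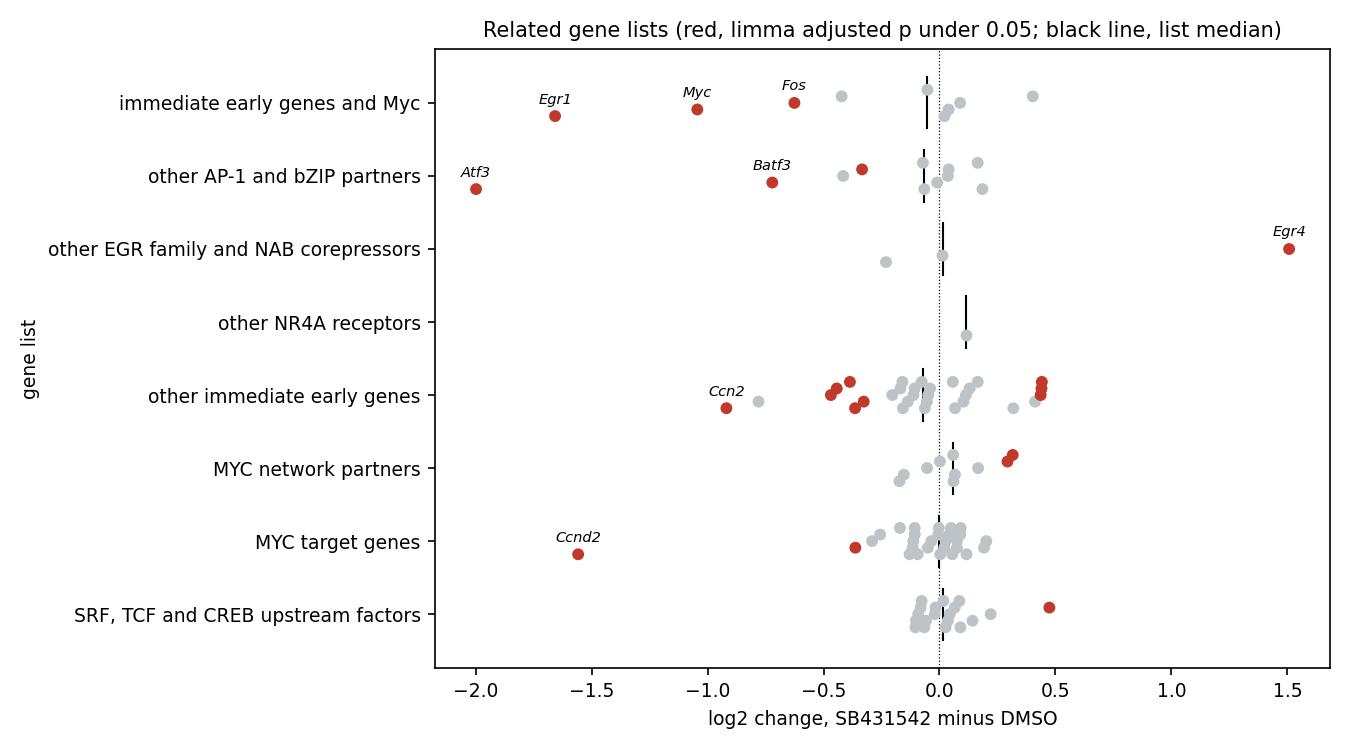
Log2 change (SB431542 minus DMSO) of each tested gene in the immediate early set and 7 related lists; red marks an adjusted p under 0.05, grey the others, and the black line the list median. Egr1, Myc, Fos, Atf3, Batf3, Ccn2 and Ccnd2 stand to the left and Egr4 to the right, while most genes lie near 0.

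To place the 3 members that fell among other genes, their profiles over the 6 arrays were centred on their means and compared with those of 15650 other genes by Euclidean distance in log2 units. The nearest to Egr1 were Vrtn (distance 0.131), the growth factor gene Fgf8 (0.150), the collagen gene Col18a1 (0.194), Fgl2 (0.249) and Rprm (0.256), with changes from -1.75 to -1.58. Nearest to Fos were the intermediate filament gene Nes (0.0829), the receptor gene Egfr (0.0856), the focal adhesion gene Tns1 (0.0955), the inhibitory Smad gene Smad6 (0.0988) and Csta2 (0.102), which changed by -0.69 to -0.60. For Myc they included Zscan4f (0.0698), Gm20767 (0.121), Bcar3 (0.125) and Plac9a (0.130), with changes from -1.08 to -1.02. Such distances describe the 6 arrays, which share 1 comparison.

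As a check that the inhibitor acted, transcripts of known Nodal targets were read on the same arrays, with log2 changes of -4.85 ± 0.10 for Lefty2, -4.59 ± 0.05 for Smad7 and -9.43 ± 0.20 for Lefty1, whose signal cleared background by the scanner's test on just 2 of the SB431542 arrays. Embryonic stem cell markers were present, with all 8 tested and a list median of -0.19. Of these 3 fell, Tdgf1 (log2 change -1.04), Utf1 (-0.42) and Dppa5a (-0.49), and 0 rose, while over all features 7.39% fell and 5.19% rose. The log2 changes of Pou5f1 (-0.29), Sox2 (0.03), Nanog (-0.02), Zfp42 (0.12) and Esrrb (-0.09) did not pass. The summed level of the 8 markers, in multiples of the 75th percentile, was 448 to 498 on the SB431542 arrays against 609 to 632 on the DMSO arrays. Dppa5a alone made up 57.1% to 62.7% of it. Without Dppa5a the sum was 192.5 to 210.8 on the SB431542 arrays against 236 to 240.9 on the DMSO arrays.

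For the counts that follow, 5.19% of all features rose and 7.39% fell, or 1345 and 1916 of 25910. Under normexp 1500 rose and 1869 fell, and with single arrays left out 542 to 1236 rose and 926 to 1678 fell. Of 7 trophoblast markers tested 2 rose, Tfap2c and Gata3, and 1 fell, Krt8, with a median of -0.02, and no array measured Elf5 well above background. Under normexp, and without SB431542 replicate 2, 2 fell. The sum was 30.2 to 30.3 on the SB431542 arrays against 15.6 to 16.2 on the DMSO arrays, of which Tfap2c (log2 change 1.22) made up 68.7% to 87.1%. Without Tfap2c the sum was 3.91 to 4.40 on the SB431542 arrays against 4.63 to 4.90 on the DMSO arrays. For fibroblast markers (1 rose and 3 fell among 9 tested, with Postn below that limit on every array, and 1 to 2 fell when single arrays were left out) the median was -0.07. Their sum was 44.2 to 47.9 on the SB431542 arrays against 45.6 to 47.5 on the DMSO arrays, of which Vim was 94.2% to 95.6%, and without Vim it was 2.09 to 2.27 on the SB431542 arrays against 2.51 to 2.67 on the DMSO arrays. Primitive endoderm markers (1 rose and 0 fell among 8, median 0.02) summed to 15.1 to 15.3 on the SB431542 arrays against 12.9 to 14.2 on the DMSO arrays, of which Lama1, whose change of 0.16 did not pass, was 92.0% to 93.2%. Without Lama1 the sum was 1.03 to 1.18 on the SB431542 arrays against 1.02 to 1.09 on the DMSO arrays. The gene that rose was Pdgfra (log2 change 0.34) in both the fibroblast and the endoderm list. Its call was lost without DMSO replicate 1 or 2 (limma adjusted p = 0.0560 and 0.0632). Those that fell in the fibroblast list were Col1a2 (log2 change -1.05), Dcn (-1.29) and Pdgfrb (-0.44). Col1a2 kept its call without each array, whereas Dcn and Pdgfrb lost theirs without any 1 DMSO array. No SB431542 array measured Dcn well above background, so it entered the test through its 3 DMSO arrays. Under normexp Dcn changed by -0.18 and its call was lost (limma adjusted p = 0.0849). When single arrays were left out, 0 to 1 endoderm markers rose and 0 to 1 fell. The part of these shifts in the changes of Egr1, Myc and Fos was not tested.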

How the data were processed

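Each array's scanner file holds linear intensity values for the spots, already background-subtracted and detrended by Agilent Feature Extraction, per the file headers (version 10.7 per the submitters' processing notes). The flags for spots well above background, outliers and saturation are each a score of 0 or 1, per the file headers. A table of log2 values deposited by the authors, with column medians from 5.18 to 5.19 over the probes used, served as an alternative only. The method of its normalization was not given in the sources used here. It followed the log2 processed signal of the same arrays at a correlation of at least 0.99988 across probes.

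Of 62976 spots per array, 59305 were non-control spots (55681 probes). No non-control spot was saturated (0 on every array), and between 63.9% and 66.2% were well above background. Outlier spots were left out, which removed 81 probes, spots of a probe were averaged on the log2 scale, and the 75th percentile of each array (453 to 565 intensity units) was subtracted. The number of arrays limits the precision. A probe was kept if 3 or more of the 6 arrays measured it well above background (36198 probes). Accessions, without their versions, were looked up in a RefSeq gene table of GRCm38.p6, which named 27200 probes, while 28387 stayed without a symbol. The grid uses mm9, so no coordinates came from that table. The brightest probe stood for a gene, which gave 25910 features.

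Groups and replicate numbers came from the sample titles. Differences were tested with limma 3.58.1 (lmFit and eBayes without trend, R 4.3.3; files were read with Python 3.11.15), as SB431542 minus DMSO, and the steps were tested on simulated data. Slide 1 carried all DMSO arrays with SB431542 replicates 1 and 2, whereas slide 2, scanned apart, carried SB431542 replicate 3. On slide 1 the DMSO arrays lay in row 1 and the SB431542 arrays in row 2, per the file headers, so row and group cannot be told apart there. Same-numbered arrays deviated from their group means with correlations of 0.0015, 0.07 and -0.06, which gave no sign of pairing by number. With so few arrays, and SB431542 replicate 3 on another slide, such values cannot exclude a pairing. The mean spot signal was not in the files, so normexp (offset 50) used the median spot signal.

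The members and lists were chosen with earlier results of these data known. Named were all 10 members, of each pathway list up to 6 genes past the threshold with the smallest adjusted p, Srf, Mycn and Max, the 5 genes nearest in profile to Egr1, Fos and Myc, and Lefty1, Lefty2 and Smad7. Further genes of the lists, such as Egr3, Nab1, Nab2, Junb, Jund, Nr4a2, Nr4a3 and single markers, were named outside this rule after their values were seen. Of the genes this rule takes, 1 is not reported here. Older symbols in the lists were updated through the same table. Alternatives covered background, scaling, the deposited table, the filter, the probe rule, the variance model, slide and replicate blocks, a stricter threshold and leaving out each array.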

Additional observations from a re-analysis of the deposited data

How the results depend on the processing

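The falls of Egr1, Myc and Fos passed under all 19 alternatives, among which slide as a block and leaving out SB431542 replicate 3 are the same fit, with log2 changes of -1.70 to -1.50, -1.08 to -0.99 and -0.65 to -0.35, where the smallest fall of Fos was under normexp. Leaving out single arrays gave -1.70 to -1.58, -1.08 to -0.99 and -0.65 to -0.61. With 1 probe per gene, the settings for the filter and the probe rule could not move these 3 changes. The intensity trend and the replicate block left them unmoved too. Such settings shifted only the error and the adjusted p, and the stricter threshold changed neither. The count of members that fell stayed at 3 or reached 4, and those that rose numbered 0 to 1, when an array was left out. Ier2 gained a call under normexp (-0.40), over probes well above background on all arrays (-0.42) and with an intensity trend (-0.42), and ran from -0.53 to -0.34 without single arrays. Ier3 then ran from 0.26 to 0.56, Fosl1 from -0.18 to 0.26, Fosb from -0.0024 to 0.23 and Nr4a1 from -0.0095 to 0.079. Fosl1, near 0, changed sign with array weights (-0.024) and with slide as a block (-0.0016).

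Over all features, 3261 changed, 1345 higher and 1916 lower. Without a filter on dim probes more features were tested, and 2097 changed and 791 rose, and at an adjusted p under 0.01 the counts were 1221, 430 and 791. Leaving out single arrays, which leaves fewer samples, gave 1468 to 2914 changed, 542 to 1236 higher and 926 to 1678 lower. With the replicate block, which the check of the numbers does not call for, 1566 changed, 544 higher and 1022 lower, and 1 of the 3 SB431542 arrays correlated best with its own number. The counts of lists on slide 1 alone were chosen after seeing the data.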
